A study of Homo sapiens with 8 samples.

Results

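The cytosolic ribosomal protein genes encode the proteins of the ribosome that translates the cell's own messenger RNAs outside mitochondria. In the count table of this study 80 genes met the rule among 58395 genes in all. A member had to be protein coding in GENCODE release 29 and carry a symbol made of RPL or RPS and a number, with or without A, X or L, or be RPLP0, RPLP1, RPLP2 or RPSA. The RPS6 kinases, the RPS4Y genes, RPS27L and longer symbols such as RPL7L1 were left out. The rule takes in 49 large subunit genes and 31 small subunit genes. The cells were AB8, a human line derived from podocytes, the filtering epithelial cells of the kidney glomerulus. They carried pIND21_hCrb2+GFP_S267A, an inducible construct for the polarity protein CRB2 with GFP and the S267A change, and were at passage 3 to 8 after modification. The tested cells (Dox, 4 libraries) had been induced for 48 h and the control cells (woDox, 4 libraries) had not been induced but carried the same construct. An effect of the inducer, of GFP, of CRB2 or of the S267A change cannot be told apart in these groups, and the labels do not say whether replicates were separate cultures.

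Ribosomal proteins are made in nearly equal amounts, and each ribosome holds a single copy of most of them, with the acidic stalk proteins RPLP1 and RPLP2 as the known exception. Their messenger RNAs are abundant, and most begin with a C followed by a run of pyrimidines at the 5′ end, the terminal oligopyrimidine (TOP) motif. Through this motif the mTOR pathway and the RNA-binding protein LARP1 set how well these messages are translated and kept. Levels of messenger RNA are measured here, so translation through the TOP motif is not.

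Each library held between 16829454 and 23081616 counted reads. CRB2 measured 1731, 4246, 4592 and 4475 counts per 1000000 scaled reads (CPM) in Dox libraries 1 to 4, against 8.3, 26.0, 26.3 and 21.7 CPM in woDox libraries 1 to 4. Its log2 change was 7.51 ± 0.52 (SE, 4 libraries each, edgeR quasi-likelihood FDR 0.0016). Both libraries numbered 1 stood apart from the rest of their groups, also in the lower CRB2 level of Dox 1, and the family's share, its median change and its calls are also given without one or both of them. Of 8 podocyte markers, 4 passed the filter for testing. Fewer than 10 reads over all libraries were found for 3 of the 8, and 1 of these had none. NPHS1 did not exceed 0.0951 CPM, and WT1 measured 0.505 to 3.93 CPM in Dox and 0.745 to 4.60 CPM in woDox libraries. Summed podocyte markers ranged from 285 to 303 CPM in Dox and from 253 to 295 CPM in woDox, most of it from CD2AP, and PODXL rose with the replicate number as a block (log2 change 0.49, edgeR FDR 0.035, DESeq2 FDR 0.23). Summed markers of other cells were low in Dox and in woDox: endothelial 0.618 to 1.11 and 0.717 to 1.09 CPM, leukocyte 2.19 to 2.93 and 3.40 to 3.92 CPM, mesangial 13.3 to 18.8 and 12.8 to 14.2 CPM, tubular 0.285 to 0.506 and 0.248 to 0.373 CPM. Among these markers of other cells, KDR, ITGA8, LRP2, AQP2 and UMOD had no read in any library. Of 2 tested mesangial markers, edgeR with the block called 1, PDGFRB, higher, and DESeq2 with the block called 0. The leukocyte sum did not overlap between the groups, and its part in the results was not tested.

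The starts of the genes are shown first, because the C and T run at the start is what these genes are known for. RefSeq promoter windows (GRCh38.p14, 250 bases before to 50 after the annotated start) were found for 63 of the 80 members. A TOP start, meaning a C at the annotated start and only C or T in the 5 bases from there, was present in 43 of the 63 members, or 68.3%, against 710 of 15322 genes, or 4.63%. A C and T run of at least 8 bases within 10 bases of the start was found in 79.4% of members and 14.9% of all genes. The windows below run from 15 bases before the start to 20 bases from it, so the annotated start is the base after the first 15. Capitals mark the longest C and T run near the start, cut at the window's edge. The first 8 belong to genes that were lower in Dox cells with the replicate block, the next 4 to genes with a TOP start that did not pass, and the last 4 to genes without a TOP start.
RPS21, chr20:62387088-62387122, plus strand: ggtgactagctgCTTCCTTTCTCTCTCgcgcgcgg
RPL11, chr1:23691791-23691825, plus strand: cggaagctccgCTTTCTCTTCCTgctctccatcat
RPL39, chrX:119791611-119791645, minus strand: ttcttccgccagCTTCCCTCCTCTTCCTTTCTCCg
RPL38, chr17:74203663-74203697, plus strand: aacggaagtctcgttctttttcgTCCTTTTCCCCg
RPS14, chr5:150449720-150449754, minus strand: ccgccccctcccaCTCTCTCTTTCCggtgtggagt
RPL28, chr19:55385917-55385951, plus strand: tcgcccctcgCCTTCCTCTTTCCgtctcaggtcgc
RPL31, chr2:101002274-101002308, plus strand: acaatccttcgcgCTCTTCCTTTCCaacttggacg
RPL37A, chr2:216498829-216498863, plus strand: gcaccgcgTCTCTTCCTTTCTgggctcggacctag
RPLP0, chr12:120201092-120201126, minus strand: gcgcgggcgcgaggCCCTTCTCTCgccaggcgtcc
RPSA, chr3:39406705-39406739, plus strand: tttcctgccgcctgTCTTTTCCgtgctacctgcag
RPL41, chr12:56116618-56116652, plus strand: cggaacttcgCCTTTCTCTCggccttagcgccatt
RPL13A, chr19:49487593-49487627, plus strand: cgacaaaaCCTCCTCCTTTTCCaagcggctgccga
RPL32, chr3:12841546-12841580, minus strand: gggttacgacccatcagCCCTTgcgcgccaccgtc
RPL3, chr22:39319604-39319638, minus strand: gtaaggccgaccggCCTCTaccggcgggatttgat
RPS19, chr19:41860389-41860423, plus strand: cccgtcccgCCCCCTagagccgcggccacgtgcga
RPS26, chr12:56041903-56041937, plus strand: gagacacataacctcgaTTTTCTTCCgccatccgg
In RPL38 the longest run lies 8 bases downstream, while the start itself is a C followed by 5 T. RPL32 passed the test with the block without a TOP start at the RefSeq position. Where its transcripts start in these cells was not measured, so this does not show that its messages lack the motif.

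In addition, 4 short motifs were searched on both strands over the whole 300-base window, with the start and its C and T run included. GGAAG, the core letters of ETS factor sites, was found in 58 of 63 members, or 92.1%, against 73.9% of all genes. GGGCGG, the letters of SP1 sites, was in 57.1% of members and 60.1% of all genes. TATAAA was in 9.52% and 9.83%, and CCAAT in 34.9% and 36.6%. Matches can share bases: GGAAG can overlap the end of GGGCGG, and its complement the start of CCAAT. A C and T run at the start that holds CTTCC, as in RPS21 and RPL11, also counts as a GGAAG match. How much of the difference in GGAAG comes from such runs was not tested. The promoters of RPL38, a gene with separate Dox and woDox levels, and RPS26, the member that varied most between libraries, are printed from 120 bases before the start to 30 bases from it, with GGAAG and its complement CTTCC in capitals.
RPL38, chr17:74203558-74203707, plus strand: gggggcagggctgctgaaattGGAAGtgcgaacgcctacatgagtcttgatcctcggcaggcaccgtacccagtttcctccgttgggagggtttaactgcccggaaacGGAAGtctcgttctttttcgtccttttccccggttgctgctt
RPS26, chr12:56041798-56041947, plus strand: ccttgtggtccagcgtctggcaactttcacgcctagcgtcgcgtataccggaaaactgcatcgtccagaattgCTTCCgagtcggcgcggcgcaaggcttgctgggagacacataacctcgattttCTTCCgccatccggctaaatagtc

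The members differed widely in level, which per coding length says how many reads a gene had for each kilobase of its coding sequence. The highest by CPM were RPL4, RPL3 and RPL19, all large subunit proteins. RPL4 measured 1885, 1784, 1734 and 1755 CPM in Dox, against 2081, 1851, 1762 and 1828 CPM in woDox. The highest per coding kilobase were RPS18 at 2914, RPLP1 at 2869 and RPL37A at 2852 CPM per kb, as means over 8 libraries. The median of the 78 tested members was 1328 CPM per kb. RPL3L and RPL10L, copies known for muscle and testis, had at most 2 and 4 reads in a library and were not tested. RPL39L, another copy known for testis, was the lowest tested member by mean CPM, at 6.82 CPM. Per coding length it measured 44.6 CPM per kb, which was not the lowest value.

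Most of the other low members share their coding bases with a second annotated gene on the same strand. Over 50% of the coding bases lay inside another gene for 7 members. These had a median of 84.2 CPM per kb, against 1380 CPM per kb (range 44.6 to 2914) for the 71 other tested members. RPL36A, RPS10 and RPL17, with 92.1% to 100% of their coding bases shared, measured 33.6, 48.3 and 84.2 CPM per kb. RPS10 and RPL36A are covered by the read-through genes RPS10-NUDT3 and RPL36A-HNRNPH2, and RPL17 by RPL17-C18orf32. RPL26, RPL22 and RPS15A, with 54.6% to 71.0% shared, measured 734, 654 and 425 CPM per kb. How reads on shared bases were assigned is not given in the sources used here, so the levels of these 7 genes are uncertain, while each library carries the same uncertainty.

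**Figure D1:**
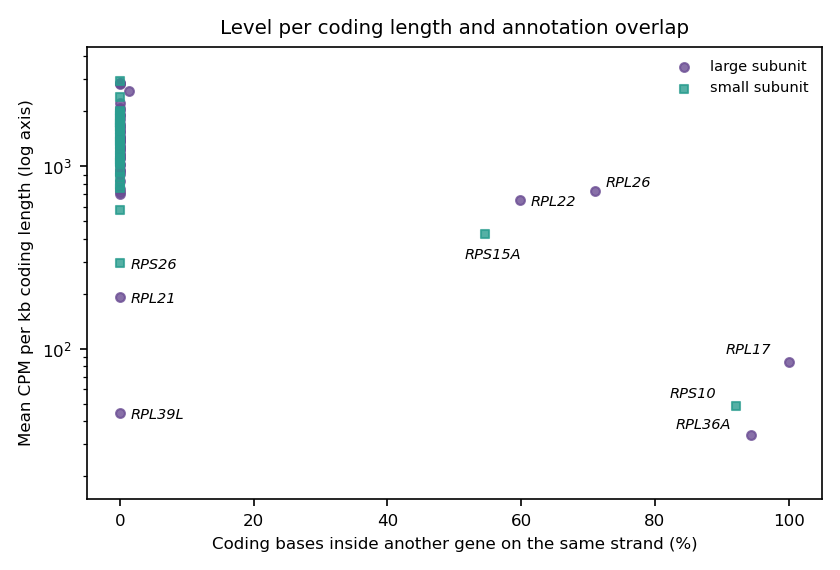
Mean CPM per kb of coding length over 8 libraries (log axis) against the share of coding bases inside another gene on the same strand, for 76 tested genes, with circles for the large and squares for the small subunit. RPL36A, RPS10 and RPL17, with over 90% of their bases shared, sit between 33.6 and 84.2 CPM per kb, below all others shown except RPL39L.

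Ribosomal protein genes also have many processed pseudogenes, which can draw reads away from a parent gene. The table lists 1144 pseudogenes of this family and 694 had at least 1 read. They held 0.155% to 0.175% of reads in Dox and 0.160% to 0.186% in woDox libraries. How reads that match several places were handled is not given in the sources used here, so levels of members with close copies are uncertain.

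The family as a whole held a smaller share of the reads in the Dox library of every same-numbered pair. Its 80 genes held 5.43%, 4.75%, 4.85% and 4.98% of the counted reads in Dox libraries 1 to 4, against 5.90%, 5.08%, 5.02% and 5.24% in woDox libraries 1 to 4. The groups overlapped, because Dox 1 lay above the 3 lower woDox libraries. The means were 5.004% ± 0.301 in Dox and 5.31% ± 0.402 in woDox (SD, n = 4 each), a difference of -0.306 percentage points, which lies between the 2 SDs. The same-numbered pairs differed by -0.466, -0.333, -0.170 and -0.255 points. The difference was -0.110 points without woDox 1, and -0.253 points without both libraries numbered 1. Large subunit genes held 3.14% ± 0.17 in Dox and 3.32% ± 0.23 in woDox, small subunit genes 1.87% ± 0.13 in Dox and 1.99% ± 0.17 in woDox (SD, n = 4 each). The ratio of large to small subunit reads was 1.68 ± 0.03 in Dox and 1.67 ± 0.02 in woDox. Mitochondrially encoded genes, another abundant group, held 2.88% to 3.56% in Dox and 3.09% to 3.91% in woDox. A smaller share in bulk RNA cannot be told apart from fewer cells with high levels.

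**Figure D2:**
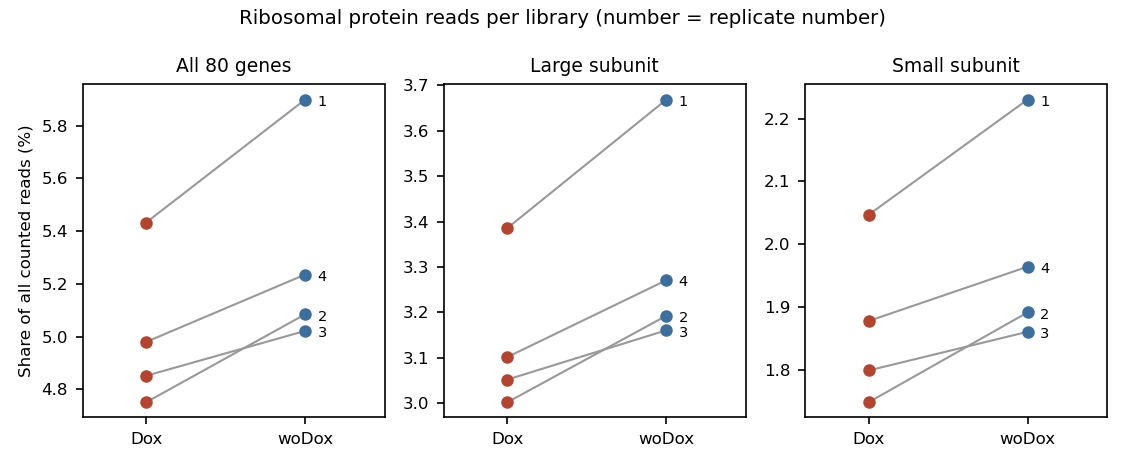
Share of all counted reads (%) on the 80 genes and on each subunit's genes, with Dox on the left and woDox on the right and a line joining libraries of the same number. Every line runs lower at the Dox end, and the libraries numbered 1 lie highest in both groups. The axes do not start at 0.

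Whether induction changed single ribosomal protein genes was tested with edgeR's quasi-likelihood test over 15637 genes. At an FDR of 0.05 it called 0 of the 78 tested members, where 6 genes or 0.0384% of all tested genes were called. At an unadjusted p under 0.05, 10 members were lower, or 12.8% of members, against 4.26% of all tested genes, and DESeq2 at an FDR of 0.05 called 6 members lower (7.69%, against 0.831%). Among them were RPL11, RPL23, RPL26, RPL28 and RPL38. The log2 change was below 0 for 73 of 78 members, or 93.6%, against 49.8% of all tested genes, with a median of -0.11 for the members and 0.0006 for all tested genes. On the linear scale that median is a difference of -7.04%. Without woDox 1 the members' median was -0.06.

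Single libraries moved these values. The count of members lower at an unadjusted p under 0.05 was 19 without Dox 1, 4 without Dox 2, 5 without Dox 3, 5 without woDox 1, 6 without woDox 4 and 27 without both libraries numbered 1. The share of all tested genes was 5.12%, 3.44%, 3.29%, 5.91%, 3.1% and 9.46% in the same order. Without woDox 1 the log2 change of RPL5 was -0.01, of RPL22 -0.02, of RPS6, RPS4X and RPS19 -0.03, and of RPL3 -0.05. RPL39 stood at -0.11, and RPL32, RPL24 and RPS14 at -0.09. Without both libraries numbered 1, RPL5, RPL3 and RPS6 stood at -0.08, -0.08 and -0.11.

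Libraries of the same number deviated together, most clearly those numbered 1, so the replicate number was also entered as a block. With this block edgeR called 27 members lower at an FDR of 0.05, or 34.6% of members, against 6.29% of all tested genes. It called 0 members higher, against 7.51% of all tested genes, and at an unadjusted p under 0.05 it had 0 members higher and 55 lower, against 15.2% and 13.3% of all tested genes. DESeq2 with the block called 19 members lower and 0 higher, against 3.47% and 3.66% of all tested genes. Of the 27, 20 were large and 7 were small subunit genes, out of 47 and 31 tested. The log2 change was lower in all 4 same-numbered pairs for 55 members, or 70.5%, against 17.0% of all tested genes. The count rested in part on single pairs: with pair 1, 2, 3 or 4 left out, 18, 11, 9 and 5 members passed, against 5.79%, 5.44%, 3.5% and 3.04% of all tested genes called lower. The last 5 were RPL11, RPL32, RPL39, RPS14 and RPS21, which passed with any pair left out. The Dox range lay wholly below the woDox range for 14 members, or 17.9%, against 3.22% of all tested genes.

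**Figure D3:**
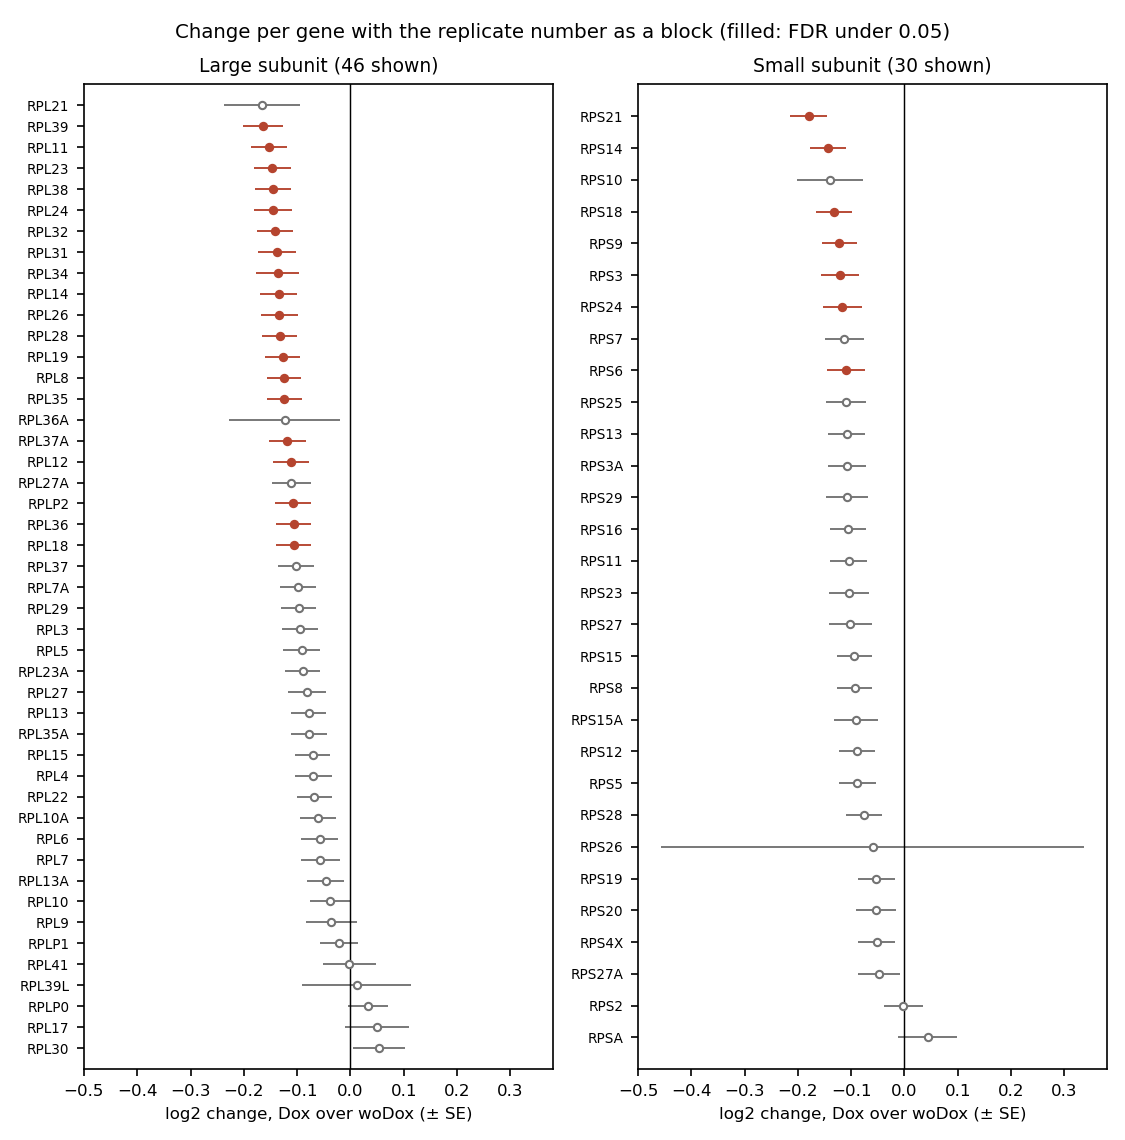
Fitted log2 change of 76 tested genes, Dox over woDox, with the replicate number as a block (points, bars ± SE), sorted within each subunit. Filled points are the 19 large and 7 small subunit genes shown that passed an FDR of 0.05, and the open points near 0 or above include RPL30, RPL17, RPSA and RPLP0.

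Of the 47 tested large subunit genes, 11 had a Dox range wholly below the woDox range, against 3.22% of all tested genes. RPL11 and RPL38 were among these 11, as were RPL7A and RPL27A, which did not pass with the block (edgeR FDR 0.0683 and 0.058). RPL11 (chr1:23691742-23696835), which with RPL5 forms the particle that binds MDM2 when ribosome assembly fails, measured 928, 897, 921 and 903 CPM in Dox, against 1076, 972, 992 and 1017 CPM in woDox. The highest Dox library lay below the lowest woDox library. Its log2 change was -0.15 ± 0.05 (SE, edgeR FDR 0.385), and with the block it fell by 0.15 on the log2 scale (SE 0.034, FDR 0.0092). RPL5, its partner, measured 1199, 1012, 1040.3 and 1048 CPM in Dox, against 1336, 1073, 1066 and 1115 CPM in woDox, and did not pass with the block (log2 change -0.09, edgeR FDR 0.0899). The groups overlapped for RPL5, with both libraries numbered 1 highest.

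RPL38, a small protein at the ribosome surface known in mice for the translation of Hox messages, varied little among the Dox libraries. It measured 442, 444, 441 and 448 CPM in Dox, against 505, 477, 480.2 and 501 CPM in woDox. The 2 ranges did not meet, and the means were 444 ± 2.96 in Dox and 491 ± 14.1 in woDox (SD, n = 4 each). With the block it fell by 0.15 on the log2 scale (SE 0.034, edgeR FDR 0.0113), and the FDR was 0.0511 without pair 3 and 0.0519 without pair 4. RPL23, another binder of MDM2, measured 843, 845, 813 and 823 CPM in Dox, against 952, 903, 878 and 948 CPM in woDox, again with no overlap. It fell with the block (log2 change -0.15, edgeR FDR 0.0118, and 0.0689 without pair 4).

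RPL39, a very short protein of the exit tunnel, measured 108, 93.3, 97.7 and 105 CPM in Dox, against 126, 105, 106 and 116 CPM in woDox. Every pair was lower in Dox, though Dox 1 and Dox 4 reached into the woDox range. It fell by 0.16 with the block (edgeR FDR 0.0107), as did RPL32 by 0.14 (FDR 0.0125) and RPL24 by 0.15 (FDR 0.0145, and 0.0552 without pair 4). RPL28 measured 735, 738, 741 and 773 CPM in Dox, against 799, 817, 814 and 846 CPM in woDox, without overlap, and fell by 0.13 with the block (edgeR FDR 0.0146, and 0.0523, 0.084 and 0.0519 without pairs 2, 3 and 4). RPL3, which lies near the peptidyl transferase centre, and RPL22 did not pass with the block (log2 change -0.10 and -0.07, edgeR FDR 0.0745 and 0.197). RPL13A, whose protein is known to leave the ribosome in the interferon response, did not pass either (log2 change -0.05, FDR 0.421).

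Of the 3 genes of the acidic stalk, which recruits the elongation factors, RPLP2 passed with the block. RPLP2 measured 534, 522, 536 and 551 CPM in Dox, against 591, 566, 559.9 and 595 CPM in woDox, with no overlap, and fell by 0.11 with the block (edgeR FDR 0.045, and 0.0748 to 0.116 with a pair left out; DESeq2 FDR 0.0752). RPLP1 measured 994, 938, 955 and 1008 CPM in Dox, against 1041, 991, 962 and 961 CPM in woDox, and its log2 change with the block was -0.02 (FDR 0.742). RPLP0, the base of the stalk, measured 1704, 1580.3, 1597 and 1693 CPM in Dox, against 1703, 1647, 1543 and 1537 CPM in woDox, with a log2 change of 0.03 (FDR 0.62). The RPLP0 and RPLP1 groups overlapped. Whether the 3 changes differ from each other was not tested.

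Among the small subunit genes, RPS21 had the lowest p of all members with the block. RPS21 (chr20:62387116-62388520) measured 468, 399, 412 and 443 CPM in Dox, against 513, 458, 457 and 524 CPM in woDox. Dox 1 reached into the woDox range, but each pair was lower in Dox. Its log2 change was -0.18 ± 0.07 (SE, edgeR FDR 0.491), and with the block it fell by 0.18 (SE 0.035, FDR 0.00395, and 0.00294 to 0.0299 with a pair left out). RPS14, whose loss of a copy is known from a myelodysplastic syndrome, measured 929, 798, 848 and 885 CPM in Dox, against 1062, 898, 916 and 948 CPM in woDox. It fell by 0.14 with the block (edgeR FDR 0.0125) and stayed under 0.05 with any pair left out (up to 0.0494).

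RPS3, which lines the entry of the messenger RNA channel, measured 1244, 1142, 1204 and 1242 CPM in Dox, against 1420.1, 1287, 1258 and 1290.5 CPM in woDox, without overlap. It fell by 0.12 with the block (edgeR FDR 0.0389), but the FDR was 0.0569 to 0.136 with a pair left out. RPS6, the substrate of the S6 kinases downstream of mTOR, fell by 0.11 with the block (edgeR FDR 0.0497, and 0.0629 to 0.174 with a pair left out; DESeq2 FDR 0.0696), and its groups overlapped. RPS19, the gene most often mutated in Diamond-Blackfan anaemia, RPS4X and RPS25 did not pass (log2 changes with the block -0.05, -0.05 and -0.11, edgeR FDR 0.342, 0.361 and 0.065). RPS27A, made as a fusion with ubiquitin, measured 477, 475, 506 and 545 CPM in Dox, against 534, 508, 492 and 535 CPM in woDox, and was lower in 2 of 4 pairs (log2 change -0.05, FDR 0.469).

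Of the 5 members with a log2 change above 0, none passed. RPSA, the laminin receptor precursor that also belongs to the small subunit, measured 582, 482, 504 and 505 CPM in Dox, against 523, 553, 481 and 455 CPM in woDox (log2 change with the block 0.04, edgeR FDR 0.659). The other 4 were RPL30, RPL17, RPLP0 and RPL39L, at 0.01 to 0.05 with the block. RPL41, which encodes a peptide of very few residues, measured 55.1, 48.8, 53.9 and 57.4 CPM in Dox, against 62.4, 47.7, 50.02 and 55.9 CPM in woDox, with groups that overlapped fully and an FDR of 0.987.

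Members with a TOP start and those without were compared as a description. For comparison, the block fit of edgeR called 6.29% of all tested genes lower and 7.51% higher. The 43 tested members with a TOP start had a median log2 change of -0.11, and 22 were called lower with the block. The 19 without had a median of -0.07, and 2 were called lower, RPL19 and RPL32. The split rests on the annotated start alone. Members without a TOP start there can still have a C and T run beside it, as RPL19 has (11 bases). The difference was not tested. Outside the family, 510 tested genes with a TOP start had a median of -0.01, with 35 called lower and 34 called higher with the block, and 9726 without it had a median of 0.0065, with 661 and 914 called.

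The libraries differed in the family beyond the Dox and woDox groups. Each member's log2 CPM was standardised over the 8 libraries, and the mean over the 78 tested members was 0.05, -0.997, -0.70 and -0.20 in Dox libraries 1 to 4, against 1.56, 0.03, -0.14 and 0.40 in woDox libraries 1 to 4. woDox 1 thus stood highest and Dox 2 lowest. Library 1 was the highest of its group for 53 members in Dox and 63 in woDox, and 49 of these were the same genes. These counts were not set against all tested genes, so they do not show a trait particular to the family. Of the members, 52 correlated with the mean profile at r above 0.8 over the 8 libraries, a description in which the profile includes each member itself. MYC, a regulator of ribosome genes that was picked after its values were seen, measured 363, 105, 118 and 109 CPM in Dox, against 333, 110.5, 119.9 and 110.2 CPM in woDox. It too was high in both libraries numbered 1, and its part in the members' levels was not tested.

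**Figure D4:**
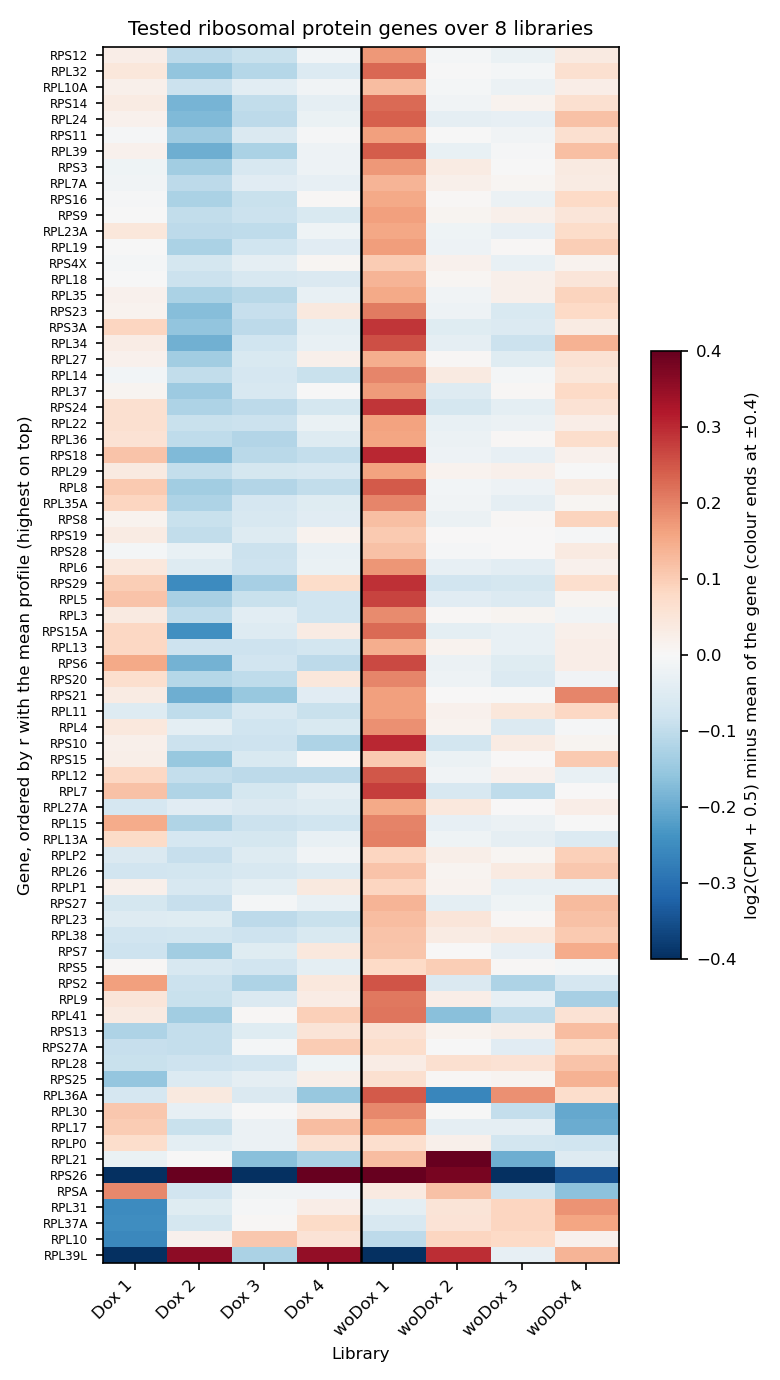
Deviation of log2(CPM + 0.5) from each gene's mean for 76 tested genes (rows, ordered by correlation with the mean profile) in 4 Dox and 4 woDox libraries (columns), with red above and blue below the mean. woDox 1 is red for most genes, Dox 2 is blue, and the bottom rows, RPL31, RPL37A, RPL10 and RPL39L, are blue in Dox 1.

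A few members ran against this profile. RPL39L, RPL10 and RPL37A were the least like it (r -0.48, -0.43 and -0.01 over 8 libraries). RPL10, a late-joining protein at the subunit interface, measured 726, 878, 935 and 901 CPM in Dox, against 807, 920.0, 917 and 877 CPM in woDox. The lowest library of each group was number 1, where most members were highest. RPL37A measured 660.3, 748, 787 and 827 CPM in Dox, against 751, 814, 833 and 876 CPM in woDox, and RPL31 441, 508, 524 and 535 CPM in Dox, against 511, 544, 558 and 595 CPM in woDox. Both had library 1 lowest as well, yet every pair was lower in Dox, and both fell with the block (edgeR FDR 0.0336 for RPL37A and 0.018 for RPL31). RPL37A did not pass with any 1 pair left out (FDR 0.0666 to 0.0971), and RPL31 did not pass without pair 3 or 4 (FDR 0.0523 and 0.0727). In all, 5 members were lowest in library 1 of both groups: RPL10, RPL28, RPL31, RPL37A and RPL39L. RPL39L measured 4.25, 8.65, 6.04 and 8.60 CPM in Dox, against 4.92, 8.25, 6.48 and 7.35 CPM in woDox, with no separation.

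RPS26 varied most. RPS26 (chr12:56041351-56044697), at the exit of the messenger RNA channel and mutated in some Diamond-Blackfan anaemia, measured 65.9, 127, 66.8 and 141 CPM in Dox, against 140.2, 125, 70.3 and 75.6 CPM in woDox. The values fell at 2 levels, 65.9 to 75.6 and 125 to 141 CPM, each with 2 libraries of either group, so they followed neither the groups nor the replicate numbers. Its within-group SD of log2 CPM was 0.548, which ranked 72nd of 4811 genes with at least 50 CPM, while the median of the members among these genes was 0.0804 and of all of them 0.11. Its log2 change was -0.04 ± 0.32 (SE, edgeR FDR 0.989). Among the members with at least 50 CPM, RPL21 had the next largest SD, 0.205, with 90.1, 91.7, 81.6 and 84.0 CPM in Dox, against 99.9, 125, 79.998 and 88.4 CPM in woDox. woDox 2 alone was high, and RPL21 did not pass with the block (log2 change -0.17, FDR 0.173).

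**Figure D5:**
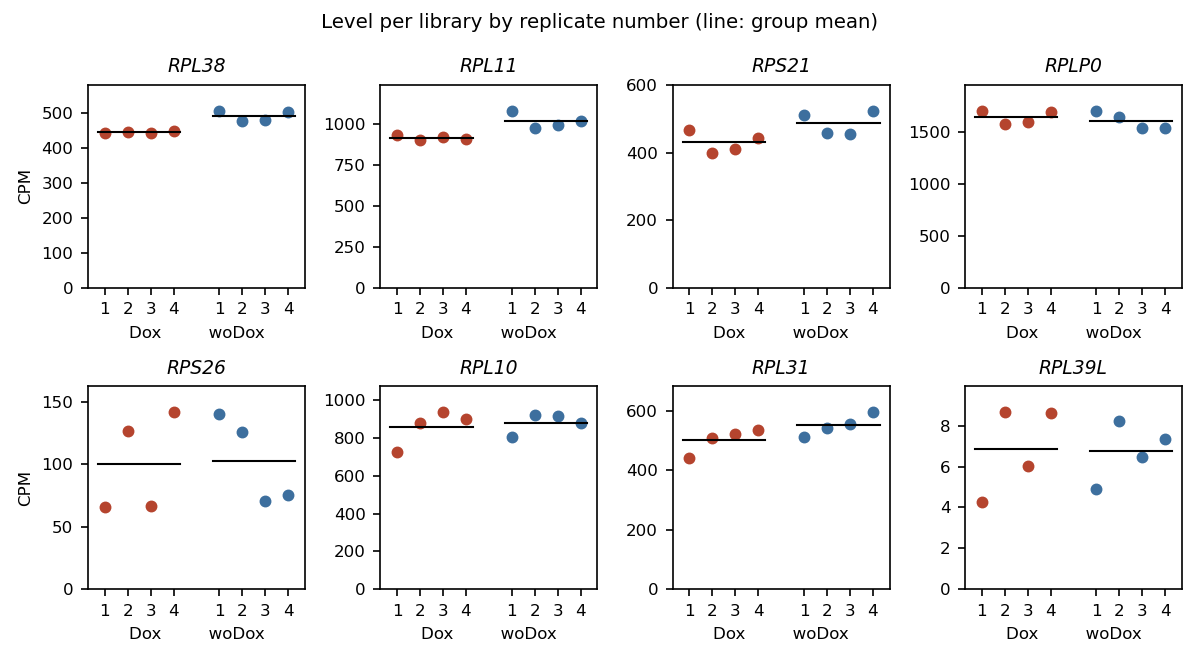
CPM in each library, by replicate number, for 8 members, with Dox on the left, woDox on the right and lines at the group means. RPL38 and RPL11 have separate groups, RPS26 sits at 2 levels in both, and RPL10, RPL31 and RPL39L are lowest in both libraries numbered 1.

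Relatives outside the rule gave calls in both directions. Of 8 relatives, 4 fell and 1 rose with the block in edgeR, against 6.29% and 7.51% of all tested genes. Their median log2 change was -0.11. DESeq2 with the block called 1 lower and 0 higher, against 3.47% and 3.66% of all tested genes. It gave FAU, RACK1, RPL26L1 and RPS27L an FDR of 0.132, 0.0621, 0.173 and 0.0878. FAU, the fusion that carries RPS30, and RACK1, a scaffold on the small subunit, fell by 0.11 and 0.10 with the block (edgeR FDR 0.0485 and 0.0477), and RPL26L1 fell by 0.18 (FDR 0.0363). RPS27L, a paralog of RPS27, measured 57.5, 49.7, 50.4 and 59.3 CPM in Dox, against 42.4, 46.4, 47.7 and 50.5 CPM in woDox, and rose by 0.21 with the block (FDR 0.0282, and 0.133 and 0.138 without pairs 1 and 4). RPS27 itself did not pass (log2 change with the block -0.10, FDR 0.107).

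The other lists for translation gave mixed counts. With the block, edgeR called 6.29% of all tested genes lower and 7.51% higher, and DESeq2 called 3.47% and 3.66%. Of 14 tested translation factors with TOP messages, 1 rose and no other passed with the block, with a median log2 change of -0.0019. The gene that rose was EEF1A1, which brings aminoacyl-tRNA to the ribosome, at 5341, 5677, 5777 and 5782 CPM in Dox, against 5395, 4929.9, 4581 and 4599 CPM in woDox (log2 change 0.21, edgeR FDR 0.0321, and 0.0921 to 0.159 without pairs 2, 3 or 4). Of 8 other TOP genes, 3 fell with the block, among them RACK1 and FAU, and the median was -0.10; DESeq2 with the block called 1. Of 12 snoRNA host genes with TOP-like starts, 2 fell, SNHG5 and ZFAS1 (log2 change -0.12 and -0.13, edgeR FDR 0.034 and 0.0382). DESeq2 with the block called 0 of the 12 (FDR 0.0924 and 0.156 for these 2 genes). At an unadjusted p under 0.05, edgeR with the block had 6 lower, against 13.3% of all tested genes. The log2 change of all 12 was below 0, against 49.8% of all tested genes, with a median of -0.10.

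Ribosome assembly genes were called about as often as all tested genes. Of 32 tested, 2 rose and 2 fell with the block, against 7.51% and 6.29% of all tested genes, and the median log2 change was -0.04. DESeq2 with the block called 1 of them, UTP20. UTP20, a factor of small subunit processing, measured 117, 111, 106 and 99.4 CPM in Dox, against 105, 95.5, 87.9 and 81.5 CPM in woDox, and rose by 0.23 (edgeR FDR 0.00175). NOP14 rose by 0.15 (FDR 0.0242), while FBL, the methyltransferase of box C/D particles, fell by 0.12 (FDR 0.0429) and PPAN fell by 0.33 (FDR 0.0332). Of 14 RNA polymerase I genes, 2 rose with the block, against 7.51% of all tested genes, and no other passed. POLR1F rose by 0.24 (edgeR FDR 0.00658) and POLR1A by 0.18 (FDR 0.0274), and the median log2 change of the 14 was 0.03. At an unadjusted p under 0.05, edgeR with the block had 4 higher and 0 lower, against 15.2% and 13.3% of all tested genes. DESeq2 with the block called POLR1F (FDR 0.0173) but not POLR1A (FDR 0.0704). Of 16 tested regulators, EIF4EBP1, a translation repressor under mTOR, fell by 0.19 (FDR 0.019), and TSC1, an inhibitor of mTOR, rose by 0.17 (FDR 0.0192). DESeq2 with the block called neither (FDR 0.0613 and 0.154), and called SP1, a general transcription factor, higher (FDR 0.0361). At an unadjusted p under 0.05, edgeR with the block had 6 regulators higher and 2 lower, against 15.2% and 13.3% of all tested genes. Of the regulators' log2 changes, 5 were below 0, against 49.8% of all tested genes, with a median of 0.05. Of 13 mitochondrial ribosomal proteins, 0 passed with the block in edgeR or DESeq2. At an unadjusted p under 0.05, edgeR with the block had 3 lower, against 13.3% of all tested genes. Of their log2 changes, 12 were below 0, against 49.8% of all tested genes, with a median of -0.04.

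The genes outside the family whose log2 CPM was most like its mean profile over the 8 libraries were found among 9789 genes with at least 10 CPM. The nearest were COX5A at r 0.983, SNRPD2 at 0.981, MMP25-AS1 at 0.978 and NME1 at 0.978, followed by VPS25, SNU13, CYC1, SRP14, MRPL32 and SYNJ2 at 0.961 to 0.971. COX5A measured 132, 122, 124 and 128 CPM in Dox, against 148, 132, 129 and 139 CPM in woDox. Its highest library was woDox 1 and its lowest Dox 2, as for the family. The libraries share their scaling, and the profile was not tested against other profiles.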

How the data were processed

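RNA was sequenced from AB8 cells in 4 Dox and 4 woDox libraries as single reads of 75 bases from a strand-marking kit, per the labels' protocols. Per the submitters' processing notes the tools were HISAT2 2.1.0 and HTSeq 0.11.1 besides Trimmomatic 0.38, bcl2fastq and, DESeq2 1.24.0, on build GRCh38 (hg38). Neither the strand setting of the counting nor the gene annotation used is stated in these sources. The authors deposited raw read counts per Ensembl gene, which were used here. A second deposited table holds a normalised signal, the counts divided by 1 factor per library, and was not used for tests. Of 58395 identifiers, 58275 matched GENCODE release 29.

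Genes were kept by filterByExpr (minimum count 10), scaled by TMM and compared with edgeR 4.0.16 in R 4.3.3 (robust quasi-likelihood test, two-sided, Benjamini-Hochberg FDR 0.05 over 15637 genes). DESeq2 1.42.0 was an alternative. The p-values set the group difference against the spread between these libraries. With the block they set it against the spread left after differences between replicate numbers are removed. Levels are given as CPM of TMM-scaled totals. A prior count of 2 entered the log2 CPM values used for pairs, profiles and SDs, but not the fitted log2 changes. The SE of an edgeR change was derived from the change and its F statistic. A count of 0 allows up to 3 counts, or 0.13 to 0.178 CPM, which covers counting error only. The fits were tested on simulated data with planted log2 changes larger than any seen in the members. Changes as small as those of the members were not planted.

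The labels number the replicates 1 to 4 in both groups without saying what a number stands for. Same-numbered Dox and woDox libraries deviated together from their group means over 11500 genes (r 0.911, 0.704, 0.707 and 0.648). Differently numbered libraries correlated at -0.775 to 0.667, and every negative value involved a library numbered 1. Dox 2 with woDox 3, at 0.667, lay above pair 4, so matching by number was less clear among libraries 2 to 4. A fit with the number as a block is therefore given where it changed a call. The members and lists were chosen with earlier results of these data known. Named genes were the 8 members with the smallest p among those lower with the block, the 3 highest and 3 lowest by CPM, the 3 highest per coding length, members fixed for their roles, up to 4 genes per list past the threshold with the block, the 3 members least like the mean profile, the 10 other genes most like it, and CRB2. Genes named beyond that rule (among them RPL28, RPL26, RPL31, RPL21, RPL30, RPL17, SP1 and MYC) were chosen after their values were seen. Alternatives were the replicate block, other scalings and filters, DESeq2, leaving out libraries, and counting 3 relatives, RPL36AL and FAU among them, as members. Some genes are not reported here and are not drawn in the figures.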

Additional observations from a re-analysis of the deposited data

Results flagged for a closer look

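Of 70 groups of 4 libraries examined, 5 held a library far from the other 3, and chance flags about 1 in 20 groups. In woDox cells, library 1 was far above the others for RPL3 (1918 CPM), RPL13A (1809 CPM), RPS18 (1629.5 CPM) and RPS19 (914 CPM). The share of mitochondrially encoded reads was far above the others in woDox library 4, at 3.91%. The causes were not tested.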

How the results depend on the processing

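The count of members called was 0 without a block and 0 under each other scaling, filter or library left out. With the replicate block it was 27, with pairs 1 to 4 left out 18, 11, 9 and 5, with upper-quartile scaling and the block 46, with the members left out of TMM and the block 31, and with 3 relatives counted as members and the block 29. DESeq2 gave 6, and 19 with the block. The causes were not tested. All calls were lower in Dox. The median log2 change was negative under every alternative (-0.126 to -0.059 with a library left out), as was the difference in share (-0.449 to -0.110 points with a library left out). Among named members, which edgeR did not call without the block, log2 changes crossed 0 with a library left out for RPLP1 (-0.0436 to 0.0044), RPSA (-0.0205 to 0.0862), RPL10 (-0.0802 to 0.0358), RPL13A (-0.0874 to 0.0143), RPL41 (-0.0666 to 0.0713), RPS26 (-0.25 to 0.15) and RPL39L (-0.10 to 0.20). Without both libraries numbered 1, an alternative chosen after seeing the data, RPSA stood at -0.0034, RPL41 at 0.0548 and RPS26 at 0.296. With the block, RPL41 stood at 0.0541 and RPS26 at 0.273 without pair 1, RPLP0 at -0.0083 without pair 4, and RPL39L at -0.012 and -0.0676 without pairs 2 and 4 and at -4.15e-05 in DESeq2. Depth limits RPL3L and RPL10L, with at most 4 reads in a library.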
